A study of Mus musculus with 32 samples.

Results

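The kinesin motors described here are the 35 genes whose symbol names a kinesin motor (Kif or Kifc followed by a number), a kinesin light chain (Klc1 to Klc4) or the kinesin-associated protein Kifap3, and whose mean level over all 32 libraries was at least 1 CPM (counts scaled to the same total in every library). They were 35 of 46 genes with such a symbol, among 24091 features with a symbol in the count tables. The lowest levels inside this limit were 1.06 CPM for Kif23 and 1.19 CPM for Kif20b. Just outside it lay Kif15 at 0.788 CPM and Kif4 at 0.676 CPM. The 35 genes belong to 12 kinesin families. By their known roles, 13 are transport motors, 3 are light chains, 1 is an accessory subunit, 5 act on microtubules, 2 move cargo toward the minus end, 5 act at the cilium and 6 act in cell division. All 35 passed the filter on low counts in every comparison below.

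Kinesins are motor proteins that use ATP to move along microtubules. Most walk toward the plus end, which in an axon points away from the cell body, so they carry vesicle precursors, mitochondria and other cargo outward. Kinesin-1 is a tetramer of heavy chains (Kif5a, Kif5b or Kif5c) and light chains (Klc1, Klc2 or Klc4) that bind cargo. Kinesin-2 joins Kif3a with Kif3b or Kif3c and the accessory subunit Kifap3, and kinesin-3 motors such as Kif1a and Kif1b carry synaptic and dense-core vesicle precursors. Layer 5b pyramidal neurons send long axons out of the cortex to the brainstem and spinal cord. Mutations in human KIF5A cause hereditary spastic paraplegia and amyotrophic lateral sclerosis (ALS), both diseases of such long axons.

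Translating ribosome affinity purification (TRAP) recovers messenger RNA on tagged ribosomes of chosen cells. Here an EGFP-L10a ribosomal tag was driven by Gprin3 or Colgalt2 regulatory sequence in bacTRAP transgenic mice aged 8 to 17 weeks, and per the labels it marks lower layer 5b pyramidal cells in the Gprin3 line (ES152 in the baseline set) and upper layer 5b pyramidal cells in the Colgalt2 line. Each purified fraction (IP) can be set against input, the RNA of the whole tissue before purification. The mice for the disease comparison also carried SOD1*G93A, a mutant SOD1 transgene used as a mouse model of ALS, and the wild-type (WT) animals were littermates without it that carried the same bacTRAP transgene. The baseline set, with no SOD1 transgene in the cross, held 2 Gprin3 IPs and 3 Gprin3 inputs from primary motor cortex (M1). It also held 2 Colgalt2 IPs and 2 Colgalt2 inputs, whose titles name M1 as well. The disease set held 3 SOD1*G93A and 2 WT Gprin3 IPs from M1, 4 SOD1*G93A and 3 WT IPs of the Colgalt2 cross. From M1 of the Gprin3 cross there were also 6 inputs of SOD1*G93A mice and 5 of WT littermates. The Colgalt2 IPs of the disease set came from whole cortex per the tissue field and the extraction protocol, although their source field names M1. The SOD1*G93A and WT inputs were taken as the input of the Gprin3 IPs of the same genotype. The labels do not say whether a library is 1 animal or a pool, so p-values measure the spread between libraries.

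Library totals ran from 10863628 to 77220890 counts. Summed markers of layer 5b neurons (16 genes) reached 1792 to 1875 CPM in baseline Gprin3 IPs against 775 to 797 CPM in their inputs, and 1676 to 2429 CPM in baseline Colgalt2 IPs against 822 to 836 CPM in theirs. These 16 include the driver genes Gprin3 and Colgalt2. In baseline Gprin3 IPs over inputs 12 of them were called higher and 2 lower by the test used below, beside 13.9% and 15.3% of all genes. Colgalt2 itself stood at 79.4 and 97.1 CPM in baseline Colgalt2 IPs and 57.0 and 52.8 CPM in their inputs, while inputs of the Gprin3 line had 3.67 to 4.96 CPM. Summed interneuron markers (15 genes) were also higher in baseline Gprin3 IPs, at 2752 and 2847 CPM, than in their inputs, at 1651 to 1804 CPM. Summed glial markers (astrocytes, oligodendrocytes and their precursors, microglia) were 1163 CPM in both baseline Gprin3 IPs, against 4130 to 4946 CPM in their inputs. In the disease set they were 1022 to 1034 CPM in SOD1*G93A Gprin3 IPs and 2306 and 3325 CPM in WT Gprin3 IPs, so the WT IPs held more glial RNA. Counts assigned to Sod1 were 691 to 733 CPM in SOD1*G93A Gprin3 IPs against 320 and 323 CPM in WT Gprin3 IPs. Baseline Gprin3 IPs, without the transgene, had 470 and 801 CPM, so this level does not by itself mark the transgene.

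Per kilobase of the longest annotated transcript, mean levels of the members ran from 188 down to 0.194 CPM per kb. Averaged over 32 libraries, the light chain Klc1 led at 188 CPM per kb, followed by the neuronal kinesin-1 heavy chain Kif5c at 162 and the synaptic vesicle precursor motor Kif1a at 138 CPM per kb. These lead genes all serve cargo transport. Kifap3 (114), Kif3a (109), Kif5a (108), Kif1b (88.2) and the microtubule growth inhibitor Kif21a (72.6 CPM per kb) came next. Kifc2, a minus-end directed neuronal motor, had 48.9 CPM per kb, Klc2 47.4, the ubiquitous heavy chain Kif5b 44.4, the microtubule depolymerase Kif2a 39.1, Kif3c 31.8 and Kif3b 23.9 CPM per kb. These 14 upper ranks held transport motors of either direction, light chains, the accessory subunit and microtubule regulators, and no motor of cell division or of the cilium. Below them a gap opened to Kif21b at 6.72 and the dendritic NMDA receptor motor Kif17 at 6.46 CPM per kb, and the lowest was the mitotic motor Kif18a at 0.194 CPM per kb. The order depends on the division by length. By CPM alone Klc1 (470 CPM) stood below Kif1a (1133), Kif5c (1110), Kif1b (903) and Kif5a (682 CPM). On GRCm38, Kif5a lies at chr10:127225695-127266348, Kif1a at chr1:93015455-93102039, Kif1b at chr4:149176319-149307773, Klc2 at chr19:5107746-5118298, Kifc2 at chr15:76659784-76668196 and Kif21b at chr1:136131390-136178001.

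**Figure D1:**
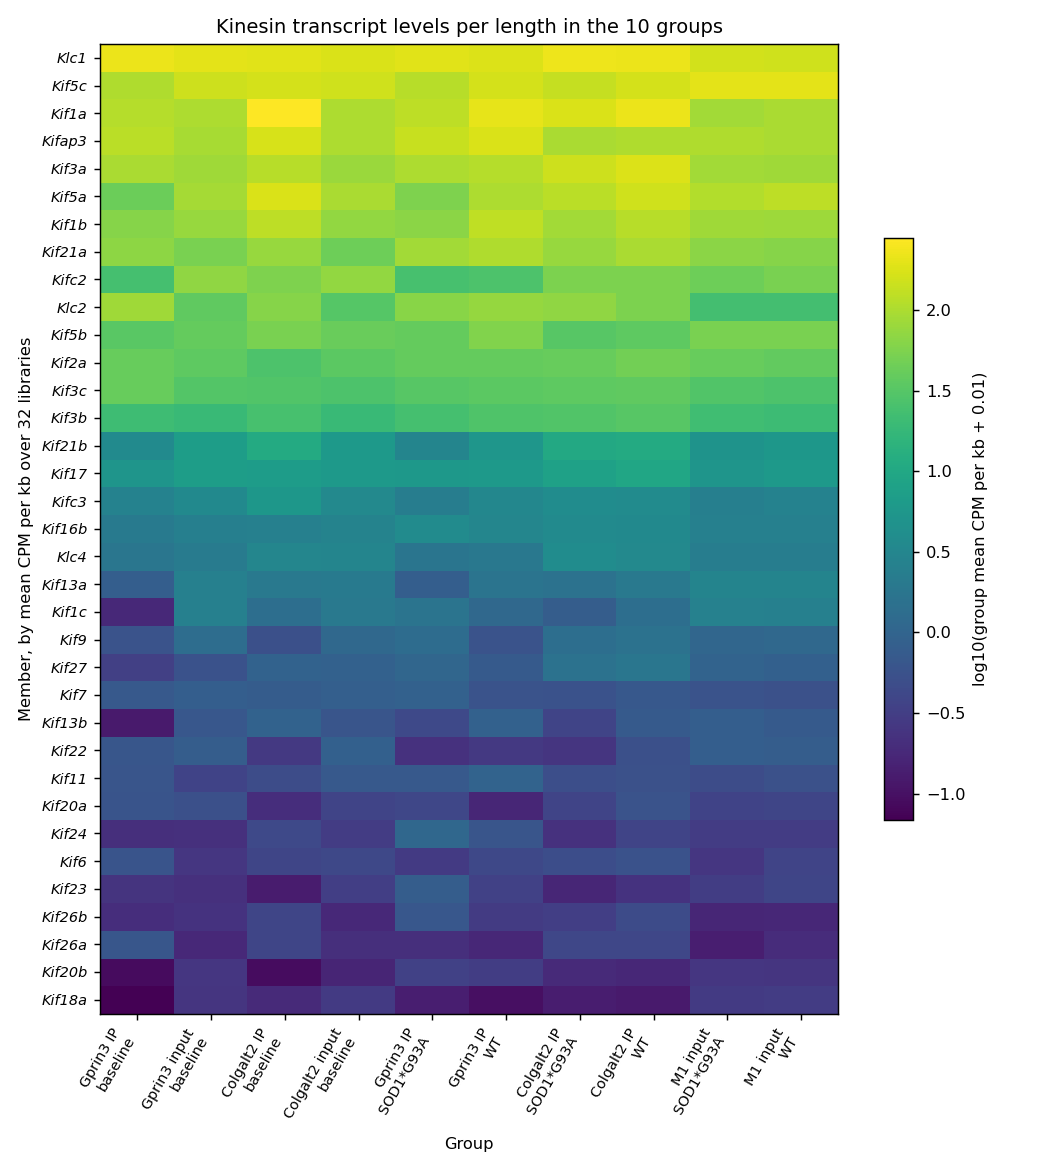
Mean level of each of the 35 members in the 10 groups, as log10 of CPM per kilobase with 0.01 added (colour), with members ordered by their mean over 32 libraries. The upper 14 rows, Klc1 to Kif3b, are bright in all 10 groups, and Kif5a and Kifc2 are darker in Gprin3 IPs than in Colgalt2 IPs.

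Promoter sequences were available for 27 of the 35 members (31 starts, RefSeq, GRCm38.p6). Of the 150 bases before the start, 7 of 31 windows lay wholly outside the annotated gene. Of these, the windows of Kif5c, Kif3c and Kif2a are shown, since these members pass the threshold in a comparison below and have a mean of at least 5 CPM. Those of Kif26b, Kif18a and Kif11, called in a comparison but with lower means, and of Kif17, called in none, are not shown, a choice made after their values were seen. They read 5′ to 3′ on the strand of the gene, with matches to the CRE motif (TGACGTCA) or the GC box (GGGCGG) on either strand in capitals.
Kif5c, chr2:49619136-49619285, plus strand: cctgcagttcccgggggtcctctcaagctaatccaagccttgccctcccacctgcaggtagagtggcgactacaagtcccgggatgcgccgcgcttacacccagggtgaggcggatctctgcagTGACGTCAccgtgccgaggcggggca
Kif3c, chr12:3364982-3365131, plus strand: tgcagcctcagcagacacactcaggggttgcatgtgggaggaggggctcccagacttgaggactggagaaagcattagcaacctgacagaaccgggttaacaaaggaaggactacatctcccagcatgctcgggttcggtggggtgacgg
Kif2a, chr13:107022356-107022505, minus strand: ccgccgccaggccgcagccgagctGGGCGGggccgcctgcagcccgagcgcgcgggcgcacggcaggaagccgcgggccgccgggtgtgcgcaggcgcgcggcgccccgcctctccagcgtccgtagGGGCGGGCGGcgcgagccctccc
Kif5c held 1 CRE, Kif2a held 3 GC boxes of which a pair overlap, and Kif3c held neither motif. The GC box was present in 20 of 31 member windows (64.5%), against 28.6% of 32851 windows of all genes. The CRE was present in 3 of 31 member windows (9.68%), against 1.36% of all windows. A TATA box (TATAAA) was in none of the 31, against 7.57% of all windows, and neither was the NRF1 motif, against 0.645%. Kif1a, Kif1b, Kif2a and Kif9 have more than 1 start in the table, and the windows of Kif1b and of Kif9 overlap, so the 31 are not independent. The windows of all genes were not filtered by level, while members had a mean of at least 1 CPM, so the sets compared are unlike.

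In baseline Gprin3 IPs against their inputs, the question was which kinesin messages the lower layer 5b cells carry more or less of than the tissue around them. The answer divided the family: 7 members were higher (Klc2, Kif26a, Kif3c, Kifap3, Kif21a, Kif2a and Kif1a) and 6 were lower (Kif1c, Kif13b, Kif13a, Kifc2, Kif5a and Kif21b). Of all 14527 genes tested, 29.2% passed the threshold of an adjusted p of 0.05 (edgeR quasi-likelihood test), 13.9% higher and 15.3% lower, so a share of the members near that of all genes was called. The median log2 fold change was -0.02 over members and -0.03 over all genes. Where the libraries of a member are said below not to overlap, the share of all genes without overlap was not counted. Called members were picked by the test on the same libraries, so for them a lack of overlap adds no support. In bulk RNA, fewer cells of a type and less RNA per cell cannot be told apart. The fit scales libraries by TMM, which set log2 fold changes higher than ratios of mean CPM by a median of 0.22 here, 0.26 in Colgalt2 IPs over inputs, 0.12 in WT and 0.07 in SOD1*G93A Gprin3 IPs over inputs, over members of at least 5 CPM in both groups (19 to 22 members).

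Among light chains, the cargo-binding subunit Klc2 had 327 and 218 CPM in Gprin3 IPs, against 104, 124 and 118 CPM in inputs. Both IPs lay above all 3 inputs, a log2 fold change of 1.46 ± 0.18 (SE, edgeR adjusted p = 0.000102). The same gene had 241, 155 and 203 CPM in SOD1*G93A Gprin3 IPs, against 65.6 to 88.1 CPM (median 72.9) in SOD1*G93A inputs. In WT littermates it had 230 and 245 CPM in Gprin3 IPs, against 63.6 to 81.5 CPM (median 78.3) in inputs. Its log2 fold change was 1.51 ± 0.13 in SOD1*G93A mice and 1.78 ± 0.10 in WT mice (edgeR adjusted p = 4.48e-07 and 1.1e-10), so Klc2 was the member with the largest rise in WT mice and stood above every input in all 3 sets. Klc1, the more abundant light chain, moved less: 0.37 ± 0.15 in the baseline set (adjusted p = 0.0791, edgeR), 0.34 ± 0.09 in SOD1*G93A and 0.37 ± 0.07 in WT mice, the last 2 past the threshold. As a share of Klc1, Klc2 and Klc4 per length, Klc2 made up 27.6 ± 2.4% of light chain RNA in baseline Gprin3 IPs (SD, n = 2) and 15.3 ± 1.7% in inputs (SD, n = 3).

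The kinesin-1 heavy chains went a different way. Kif5a, the neuronal heavy chain linked to motor neuron disease in humans, had 314 and 239 CPM in baseline Gprin3 IPs, against 681, 535 and 517 CPM in inputs. The groups did not overlap, and the log2 fold change was -0.84 ± 0.17 (edgeR adjusted p = 0.00324). It was -0.88 ± 0.07 in SOD1*G93A mice (adjusted p = 2.28e-07, edgeR) but -0.16 ± 0.12 in WT littermates (adjusted p = 0.32), where the IPs had 669 and 590 CPM against 670 to 994 CPM in inputs. Kif5c had 734 and 706 CPM in baseline Gprin3 IPs, against 1104, 1002 and 948 CPM in inputs, a log2 fold change of -0.28 ± 0.13 that missed the threshold (edgeR adjusted p = 0.11). Kif5b had 198 and 203 CPM in these IPs, against 262, 220 and 226 CPM in inputs, a log2 fold change of -0.01 ± 0.14, so its lower CPM in both IPs was of the size of the scaling shift. Of the 3 heavy chains, Kif5a alone was called in the baseline set. In SOD1*G93A mice all 3 were called lower in the IP (Kif5c -0.73 ± 0.08, Kif5b -0.37 ± 0.07), while in WT mice Kif5b was called higher (0.26 ± 0.08, edgeR adjusted p = 0.0196). There its IPs, at 321 and 368 CPM, overlapped the inputs at 291 to 331 CPM, and it was at 0.15 without the WT IP of replicate 2, no longer past the threshold.

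Among kinesin-2 members, Kifap3 and Kif3c were called higher. Kifap3, which joins the Kif3 motors to cargo, had 462 and 504 CPM in baseline Gprin3 IPs, against 385, 345 and 417 CPM in inputs (log2 fold change 0.56 ± 0.13, edgeR adjusted p = 0.00809). It was called higher in SOD1*G93A mice (0.47 ± 0.08) and in WT mice (0.98 ± 0.08) as well. Kif3c, the neuronal partner of Kif3a, had 292 and 261 CPM in these IPs, against 202, 209 and 208 CPM in inputs (0.64 ± 0.13, edgeR adjusted p = 0.00347), with no overlap. Kif3a and Kif3b missed the threshold in the baseline set (0.37 ± 0.13 and 0.39 ± 0.15, edgeR adjusted p = 0.0508 and 0.0712) and passed it in SOD1*G93A mice (0.26 ± 0.07 and 0.24 ± 0.09) and WT mice (0.50 ± 0.10 and 0.58 ± 0.09). In SOD1*G93A mice the Kif3b call was lost in 6 of 9 fits with 1 library left out. Kif17, the homodimeric kinesin-2, had 20.1 and 15.8 CPM in baseline Gprin3 IPs, against 23.2, 28.9 and 20.4 CPM in inputs, and did not pass (-0.20 ± 0.23).

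Among kinesin-3 motors, Kif1a had 887 and 947 CPM in baseline Gprin3 IPs, against 791, 784 and 875 CPM in inputs. The lower IP exceeded the highest input by a small margin, and the log2 fold change was 0.38 ± 0.12 (edgeR adjusted p = 0.0308). Kif1a was also called higher in SOD1*G93A mice (0.55 ± 0.08) and WT mice (1.2 ± 0.09). Kif1b, a motor for mitochondria and synaptic vesicle precursors, differed between the sets: -0.07 ± 0.12 at baseline (edgeR adjusted p = 0.69), -0.28 ± 0.06 in SOD1*G93A mice (adjusted p = 0.00216, edgeR) and 0.72 ± 0.07 in WT mice (adjusted p = 2.47e-07, edgeR). With the length trend taken out, Kif1b in SOD1*G93A mice turned to 0.10 ± 0.07 and did not pass, while in WT mice it was at 0.47 ± 0.07 and passed. The less abundant Kif1c, a widely expressed member, had 1.48 and 0.768 CPM in baseline Gprin3 IPs, against 17.7, 17.1 and 16.5 CPM in inputs. At -3.69 ± 0.37 this was the largest fall of any member there (edgeR adjusted p = 3.22e-05). It was called lower in WT mice (-1.08 ± 0.21) but not in SOD1*G93A mice (-0.62 ± 0.41, edgeR adjusted p = 0.22), where the 3 IPs spread from 3.0 to 22.8 CPM. Kif13a and Kif13b, endosomal and membrane cargo motors, fell by 1.42 ± 0.42 and 2.26 ± 0.63 on the log2 scale at baseline, against inputs under 20 CPM, and both lost the call when any of the 3 inputs was left out. Summed glial markers moved in the same direction as these low members, as given above, and their part in the result was not tested.

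The microtubule-regulating and minus-end members split. Kif21a, which halts microtubule growth, had 479 and 392 CPM in baseline Gprin3 IPs, against 405, 294 and 329 CPM in inputs, so the groups overlapped while the fit gave 0.56 ± 0.16 (edgeR adjusted p = 0.0201). Its relative Kif21b had 37.3 and 29.7 CPM in IPs, against 63.5, 70.9 and 61.8 CPM in inputs (-0.74 ± 0.18, edgeR adjusted p = 0.00915), with no overlap. Kif2a had 231 and 201 CPM in IPs, against 184, 203 and 174 CPM in inputs (0.43 ± 0.14, edgeR adjusted p = 0.0359). Kif26a, a non-motile kinesin, rose by 2.10 ± 0.52 on the log2 scale from a low base, with 3.77 and 4.96 CPM in IPs against 1.33, 1.24 and 0.967 CPM in inputs. Kifc2, the neuronal minus-end motor, had 76.4 and 77.1 CPM in IPs, against 211, 266 and 211 CPM in inputs, a fall of 1.36 ± 0.15 (SE, log2 scale; edgeR adjusted p = 7.06e-05). Kifc2 was lower in SOD1*G93A mice (-0.73 ± 0.11) and WT mice (-0.85 ± 0.11) too, so it stood below its input in all 3 Gprin3 sets. With any library left out in turn, 6 of the 13 baseline calls held in every fit, those of Klc2, Kifap3, Kif3c, Kif5a, Kif1c and Kifc2.

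In the disease set the counts were larger, as were those of all genes. In SOD1*G93A mice 11 members were higher and 9 lower in Gprin3 IPs than in inputs, against 49.8% of all 14460 genes (24.7% higher, 25.1% lower). In WT littermates 12 were higher and 4 lower, against 40.4% of all 14930 genes (20.6% higher, 19.8% lower). The inputs of both genotypes outnumbered the IPs, and the SOD1*G93A and WT contrasts share no library. The call of Kif26b in SOD1*G93A mice (2.14 ± 0.66) rested on a single IP with 22.8 CPM, beside 1.72 and 2.43 CPM in the other IPs and 0.949 to 4.2 CPM in inputs, and was -0.02 without that IP. Kif24, a centriole depolymerase, was at 12, 5.82 and 0.34 CPM in these IPs (1.96 ± 0.64), and Kif16b, an early endosome motor, was at 37.0, 18.3 and 16.8 CPM (0.62 ± 0.24), so these calls rest on unequal libraries as well. The Kif16b call held in 3 of 9 fits with 1 library left out and was at 0.14 without replicate 1 of the IPs.

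**Figure D2:**
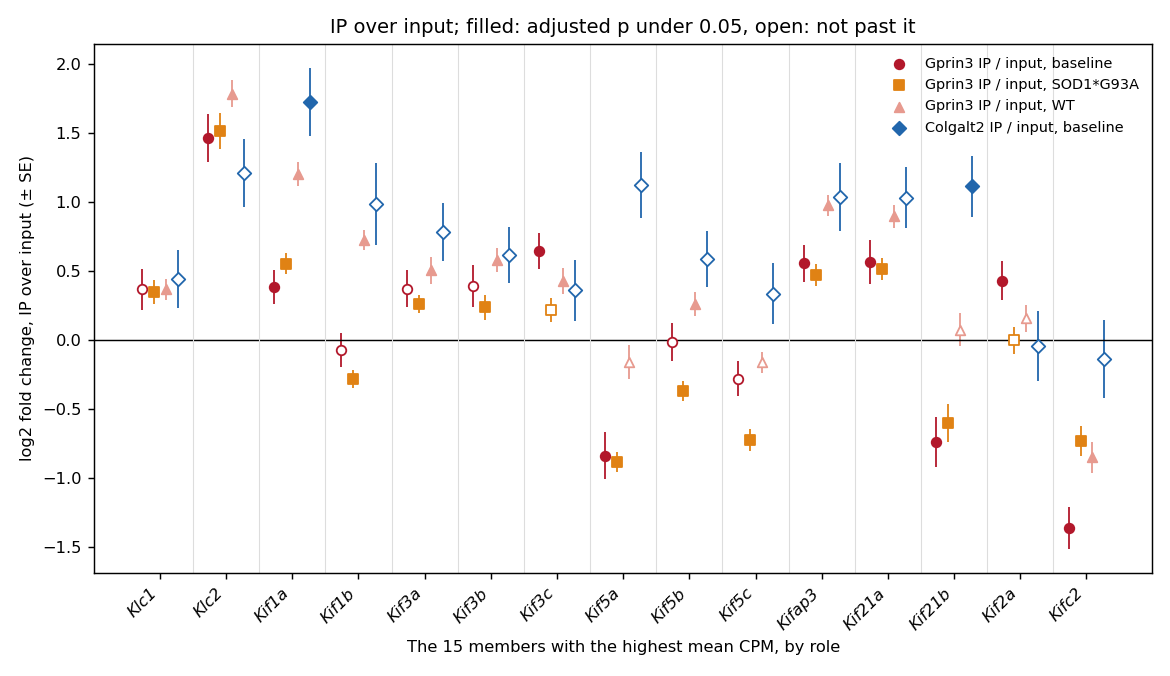
Log2 fold change of IP over input with its SE for the 15 members with the highest mean CPM, in 4 comparisons; filled symbols have an adjusted p under 0.05 (edgeR). Klc2 is above 1 in all 4, Kifc2 is below 0 in all 4, and Kif5a is at 1.12 in the Colgalt2 comparison and between -0.88 and -0.16 in the 3 Gprin3 comparisons.

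Baseline Colgalt2 IPs, from upper layer 5b cells, gave 2 members past the threshold against their inputs, both higher, where 2.65% of all 14240 genes passed (1.75% higher, 0.906% lower). Kif1a had 2658 and 1936 CPM in Colgalt2 IPs, against 825 and 841 CPM in inputs, a log2 fold change of 1.72 ± 0.25 (edgeR adjusted p = 0.0389). Kif21b had 121 and 84.7 CPM in IPs, against 56.7 and 56.9 CPM in inputs (1.11 ± 0.22, edgeR adjusted p = 0.0496). Both were picked by this test, and neither group overlapped its input, a trait not counted over all genes. Next by p came Klc2 at 1.21 ± 0.25 (edgeR adjusted p = 0.052), Kif21a at 1.03 ± 0.22 and Kif5a at 1.12 ± 0.24 (both 0.0544), none of them past the threshold. Kif5a had 1046 and 1134 CPM in Colgalt2 IPs, against 571 and 645 CPM in inputs, so both IPs lay above both inputs. The 2 Colgalt2 IPs differed from each other: Kif1b had 1647 and 883 CPM and Kifc2 had 237 and 127 CPM. The count of members called was 18 or 17 with either IP left out and 0 with either input left out. It was 0 with the trend of level on transcript length taken out, and 8 by DESeq2. Summed vascular markers were 101 and 249 CPM in these IPs, against 89.8 and 117 CPM in inputs, and their part in the result was not tested.

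Set directly against Colgalt2 IPs, baseline Gprin3 IPs had less of 5 members and more of none, where 6.67% of all 13604 genes passed, 2.22% higher and 4.45% lower. Kif5a showed the smallest p: 314 and 239 CPM in Gprin3 IPs against 1046 and 1134 CPM in Colgalt2 IPs, a log2 fold change of -1.98 ± 0.27 (edgeR adjusted p = 0.0015). Kif21b, a motor found in dendrites and growth cones, had 37.3 and 29.7 CPM in Gprin3 IPs against 121 and 84.7 CPM in Colgalt2 IPs (-1.60 ± 0.29, adjusted p = 0.00718, edgeR). Kif1a had 887 and 947 CPM in Gprin3 IPs against 2658 and 1936 CPM in Colgalt2 IPs (-1.32 ± 0.27, adjusted p = 0.0113, edgeR). In each of these members, picked by the test on the same libraries, the lines did not overlap, a trait not counted over all genes. Kifc2 had 76.4 and 77.1 CPM in Gprin3 IPs against 237 and 127 CPM in Colgalt2 IPs (-1.23 ± 0.29, adjusted p = 0.0247, edgeR). Kif1c had 1.48 and 0.768 CPM in Gprin3 IPs against 13.7 and 4.53 CPM in Colgalt2 IPs (-2.96 ± 0.76, adjusted p = 0.0347, edgeR). The light chains did not follow the heavy chain: Klc2 was at 0.50 ± 0.29 and Klc1 at 0.19 ± 0.25, neither past the threshold. The kinesin-2 motors Kif3a (-0.26 ± 0.24), Kif3b (-0.19 ± 0.26) and Kif3c (0.48 ± 0.26) did not pass it either.

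Taking the difference of IP over input between the lines, which removes what the inputs of the 2 lines differ by, left all 5 calls in place. Kif5a was at -1.88 ± 0.28 (edgeR adjusted p = 0.00224), Kif21b at -1.78 ± 0.28, Kif1a at -1.26 ± 0.23, Kifc2 at -1.14 ± 0.31 and Kif1c at -3.28 ± 0.62, and Kif13b also passed at -3.02 ± 0.83 (adjusted p = 0.0375, edgeR). Across 13529 genes with a length, the log2 fold change between the lines had a Spearman correlation of -0.38 with transcript length, as a description over genes that share the same 4 libraries. With a length trend taken out of each library, Kif5a (-1.65 ± 0.26, edgeR adjusted p = 0.0171) and Kifc2 (-1.28 ± 0.29, 0.0473) kept the call, and Kif21b (-0.91 ± 0.25), Kif1a (-0.74 ± 0.25) and Kif1c (-2.55 ± 0.72) kept the sign only. No member held its call in every fit with 1 of the 4 libraries left out: the count was 0 and 1 without either Gprin3 IP and 7 and 9 without either Colgalt2 IP. Summed glial markers were 1163 CPM in both Gprin3 IPs against 2318 and 3604 CPM in Colgalt2 IPs, and vascular markers 34.0 and 40.5 CPM against 101 and 249 CPM. Summed interneuron markers were at 2752 and 2847 CPM in Gprin3 IPs against 1332 and 1962 CPM in Colgalt2 IPs, with 7 of 15 called higher and 0 lower. The part of these cell types in the result was not tested.

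**Figure D3:**
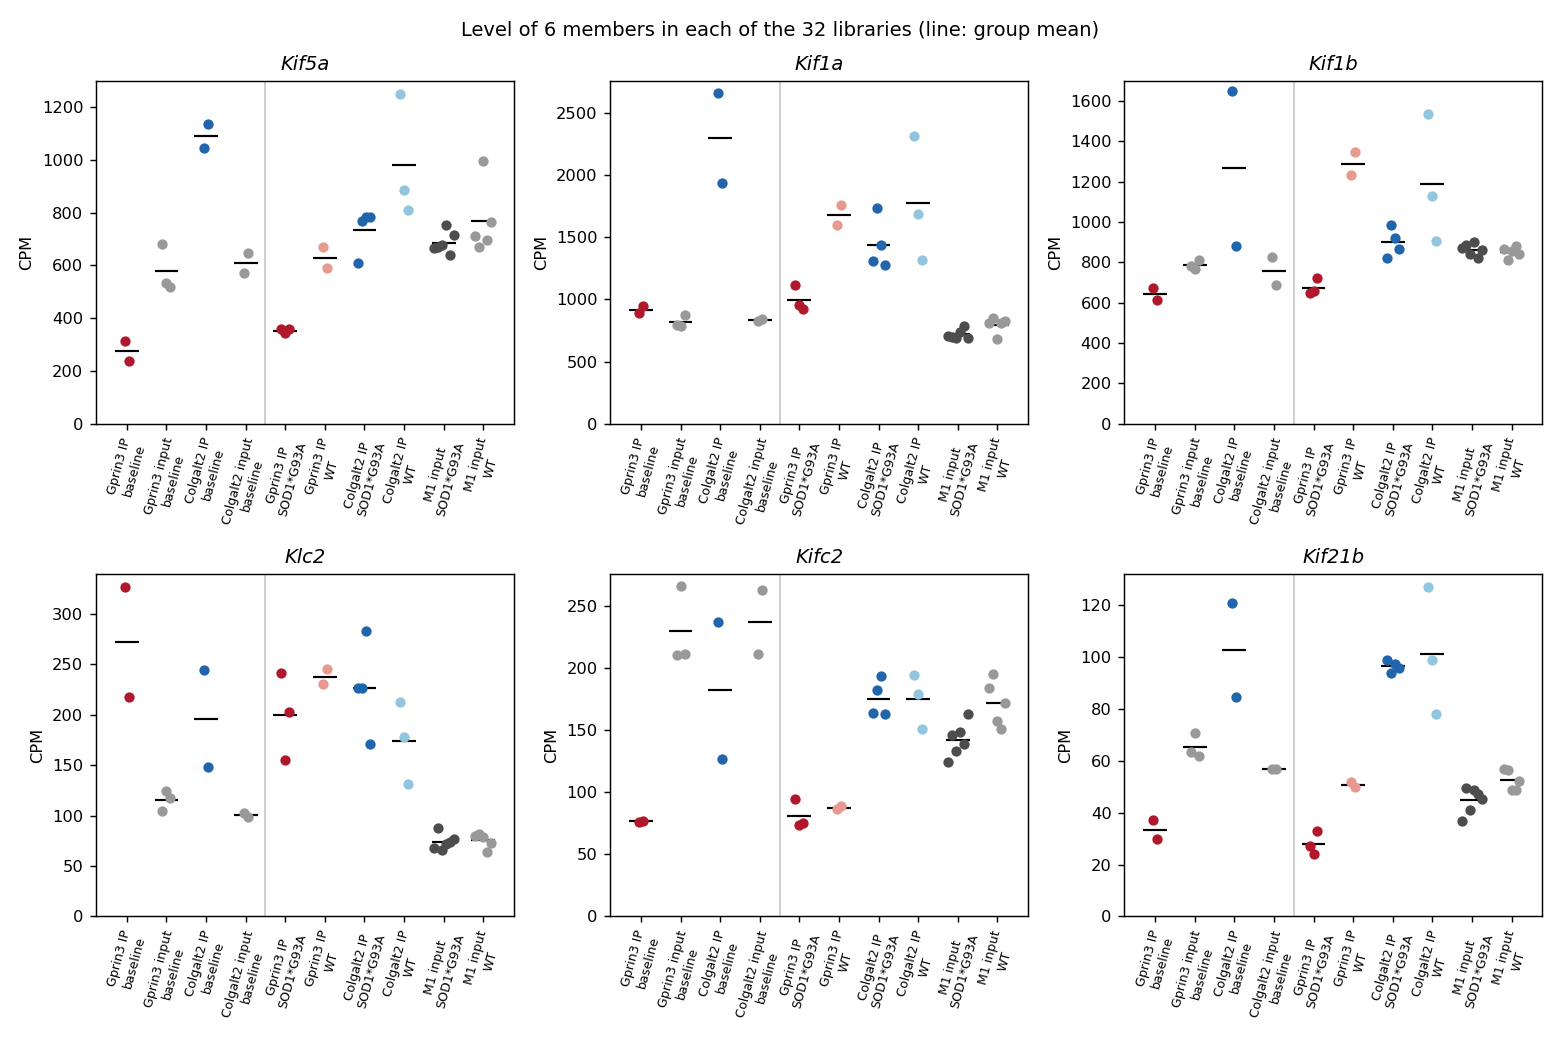
CPM of Kif5a, Kif1a, Kif1b, Klc2, Kifc2 and Kif21b in each of the 32 libraries (points) with the group mean (line), baseline groups left of the grey line and disease groups right of it. The Gprin3 IPs of the baseline set lie below the Colgalt2 IPs for Kif5a, Kif1a, Kifc2 and Kif21b, and the SOD1*G93A Gprin3 IPs lie below the WT Gprin3 IPs for Kif5a, Kif1a, Kif1b and Kif21b.

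The mix of kinesin-1 heavy chains, taken per length within each library, gave the contrast between the lines in another form. Kif5a made up 24.0 ± 3.2% of Kif5a, Kif5b and Kif5c together in baseline Gprin3 IPs and 44.6 ± 3.8% in baseline Colgalt2 IPs (SD, n = 2 each). The inputs of the lines were alike at 32.7 ± 1.6% for Gprin3 (n = 3) and 32.8 ± 1.5% for Colgalt2 (SD, n = 2). In the disease set, made from other animals and, for Colgalt2, another dissection, Kif5a was 25.5 to 28% of heavy chain RNA in SOD1*G93A Gprin3 IPs and 29.1 and 33.3% in WT Gprin3 IPs. In Colgalt2 IPs of that set it was 35.7 to 43.7% in SOD1*G93A and 39.9 to 47.5% in WT mice. Every Colgalt2 IP therefore had a larger Kif5a share than every Gprin3 IP, in both sets. Kif5c, at 57.7 ± 1.8% in baseline Gprin3 IPs and 41.9 ± 1.7% in baseline Colgalt2 IPs, took up most of the difference. Kif21b as a share of Kif21a and Kif21b was 5.01 and 5.14% in baseline Gprin3 IPs and 12.5 and 12.6% in baseline Colgalt2 IPs. In the disease set the Kif21b share was 2.89 to 3.45% in SOD1*G93A Gprin3 IPs and 4.95 and 4.97% in WT Gprin3 IPs, against 10.3 to 13.1% and 8.70 to 11% in SOD1*G93A and WT Colgalt2 IPs. Kif5a and Kif21b were picked by the test between the baseline IPs, so in that set the separation of the lines adds no support. How many genes separate the lines in this way, in either set, was not counted.

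**Figure D4:**
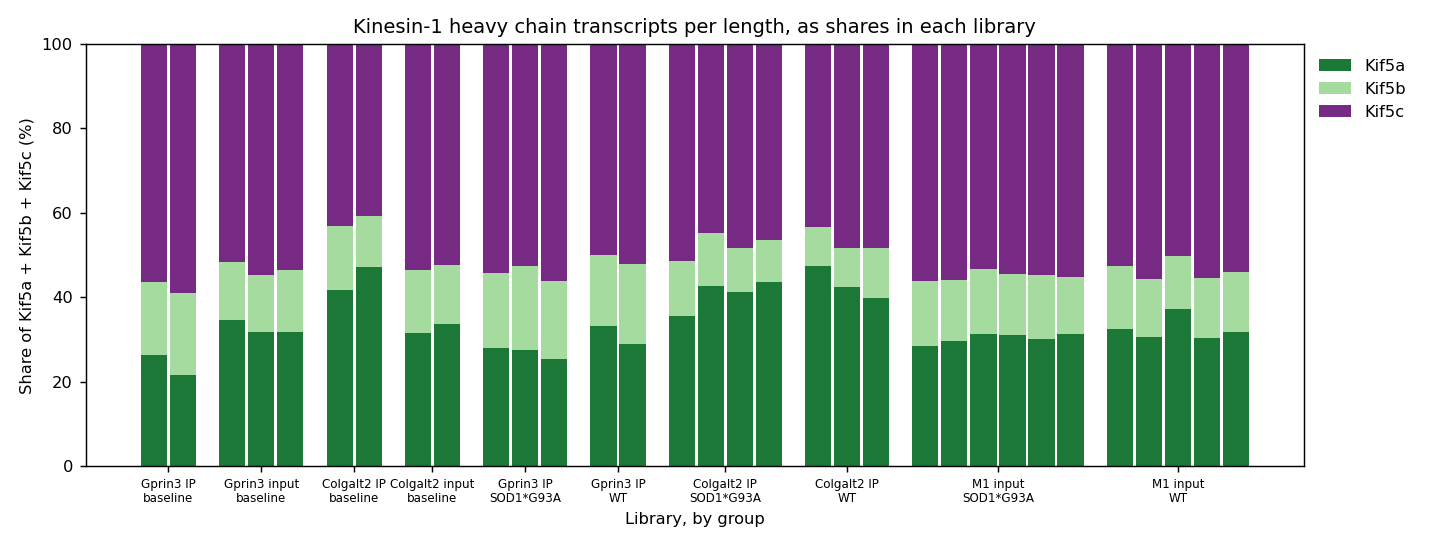
Shares of Kif5a, Kif5b and Kif5c in the sum of the 3, per transcript length, in each of the 32 libraries (bars, stacked to 100%). The Kif5a part is 35.7% or more in all Colgalt2 IPs and 33.3% or less in all Gprin3 IPs.

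SOD1*G93A was set against WT in Gprin3 IPs, the comparison that asks how mutant SOD1 changes ribosome-bound RNA of lower layer 5b cells. All 6 members past the threshold were lower in SOD1*G93A mice, and none was higher, where 8.15% of all 13726 genes passed, 2.92% higher and 5.22% lower. They were the 3 heavy chains of kinesin-1, the vesicle motors Kif1a and Kif1b, and Kif21b. Kif1b had 646, 659 and 720 CPM in SOD1*G93A IPs, against 1232 and 1347 CPM in WT IPs (log2 fold change -0.94 ± 0.10, edgeR adjusted p = 0.000607). Kif5a had 358, 343 and 358 CPM in SOD1*G93A IPs, against 669 and 590 CPM in WT IPs (-0.84 ± 0.11, edgeR adjusted p = 0.00194). Kif1a had 1115, 956 and 925 CPM in SOD1*G93A IPs, against 1599 and 1759 CPM in WT IPs (-0.75 ± 0.12, edgeR adjusted p = 0.00497). Kif1b, Kif5a and Kif1a thus separated the genotypes with a wide gap. Kif21b had 27.1, 24.0 and 32.8 CPM in SOD1*G93A IPs, against 51.8 and 49.8 CPM in WT IPs (-0.86 ± 0.22, edgeR adjusted p = 0.0377). Kif5b had 217, 238 and 246 CPM in SOD1*G93A IPs, against 321 and 368 CPM in WT IPs (-0.56 ± 0.12, edgeR adjusted p = 0.0184). Kif5c had 754, 715 and 859 CPM in SOD1*G93A IPs, against 1095 and 1148 CPM in WT IPs (-0.53 ± 0.11, edgeR adjusted p = 0.0191). No SOD1*G93A library reached the WT range for any of the 6. They were picked by the test on these same libraries, so this lack of overlap adds no support. The share of all genes without overlap was not counted.

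The other abundant members did not pass the threshold. Kifap3 came nearest at -0.36 ± 0.11 (edgeR adjusted p = 0.0749), and Kif21a was at -0.24 ± 0.12. Klc2 (-0.25 ± 0.19), Klc1 (0.07 ± 0.12), Kif3a (-0.16 ± 0.11), Kif3b (-0.21 ± 0.14), Kif3c (-0.10 ± 0.13), Kifc2 (-0.11 ± 0.18) and Kif2a (0.00 ± 0.15) lay near 0. The median over the 35 members was -0.14, against 0.01 over all genes. Summed over members, SOD1*G93A Gprin3 IPs had 5718 to 6211 CPM and WT Gprin3 IPs 8161 and 8531 CPM. The Gprin3 IPs of the baseline set, which are also without the SOD1 transgene, had 5356 and 5860 CPM.

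Several measured quantities moved with this fall. The 6 members had longest transcripts of 6032 to 10233 nt (median 7531 nt), against a median of 4819 nt for members not called. Over 13659 genes the log2 fold change had a Spearman correlation of -0.39 with transcript length, as a description over genes that share the same 5 libraries. With the length trend taken out of each library, Kif5a alone kept its call (-0.55 ± 0.12, edgeR adjusted p = 0.0356), and Kif1b was at -0.30 ± 0.10 (adjusted p = 0.149). Oligodendrocyte markers summed to 159 to 165 CPM in SOD1*G93A Gprin3 IPs and 524 and 714 CPM in WT Gprin3 IPs, and astrocyte markers to 815 to 833 CPM against 1633 and 2362 CPM. The part of length and of these cell types in the result was not tested beyond the alternatives given here. With the baseline Gprin3 IPs in place of the WT IPs, an alternative added after the data were seen and made across separate sets, 0 members passed: Kif1b was at 0.01 ± 0.12, Kif5a at 0.29 ± 0.16, Kif1a at 0.07 ± 0.13 and Kif21b at -0.32 ± 0.27. In that alternative edgeR called 65 of all genes. Kif1b had 672 and 615 CPM, and Kif5a 314 and 239 CPM, in these baseline IPs, close to or below the SOD1*G93A values. With any of the 5 libraries left out, Kif1b and Kif5a held their calls in every fit. The call of Kif1a was lost without the WT IP of replicate 2, those of Kif5b and Kif5c without either WT IP, and that of Kif21b in 4 of 5 such fits.

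**Figure D5:**
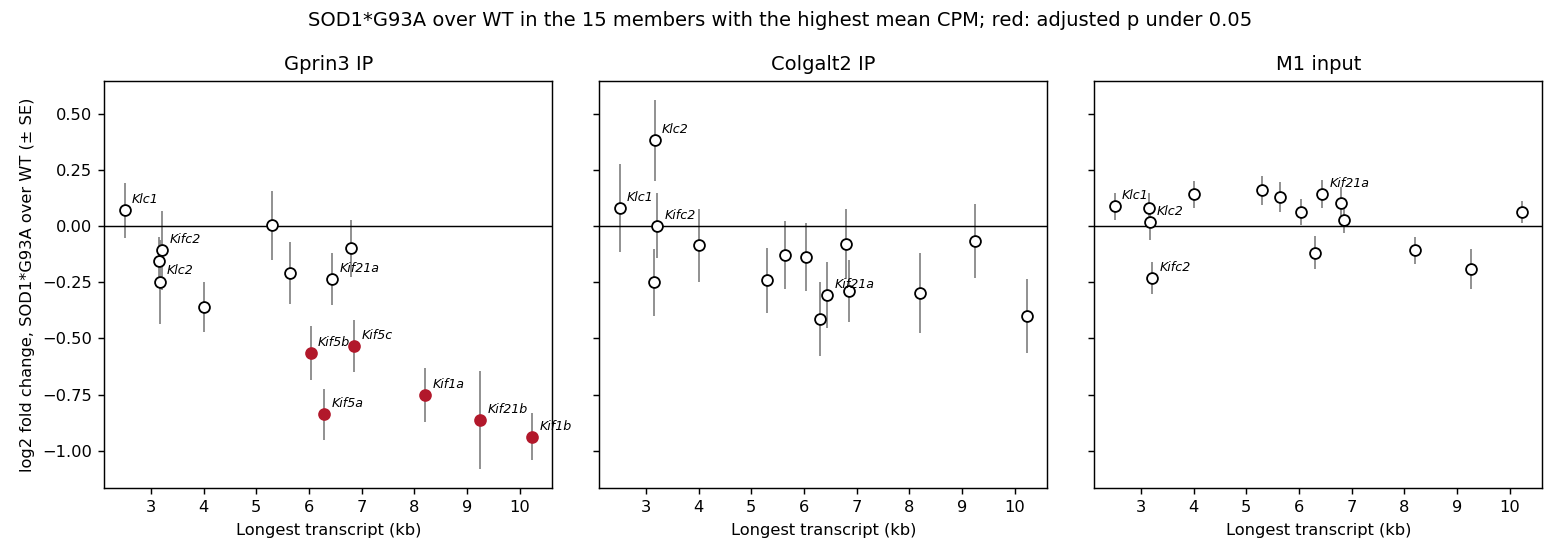
Log2 fold change of SOD1*G93A over WT with its SE in Gprin3 IPs, Colgalt2 IPs and M1 inputs, plotted on the longest transcript length for the 15 members with the highest mean CPM; red points have an adjusted p under 0.05 (edgeR). The 6 red points occur in Gprin3 IPs, at lengths from 6032 to 10233 nt, and there are none in Colgalt2 IPs or in M1 inputs.

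In Colgalt2 IPs, SOD1*G93A against WT gave 0 members past the threshold, as it gave 0 of all 14785 genes (0%, edgeR), where 1073 genes had an unadjusted p under 0.05 and DESeq2 called 72 genes and 0 members. The members with the smallest p were Kif5a, Kif1b and Kif5c. Kif5a had 608, 767, 782 and 782 CPM in SOD1*G93A Colgalt2 IPs, against 1248, 887 and 810 CPM in WT Colgalt2 IPs (-0.41 ± 0.16, edgeR adjusted p = 0.62). Kif1b had 821, 987, 923 and 868 CPM in SOD1*G93A IPs, against 1534, 1129 and 907 CPM in WT IPs (-0.40 ± 0.16, edgeR adjusted p = 0.63). For Kif5a the genotypes were separate, for Kif1b they overlapped, and in both the WT libraries were spread widely. Kif5a was named here for its small p on these same libraries, so the separation adds no support. The share of all genes so separated was not counted. Kif5c was at -0.29 ± 0.14, Kif1a at -0.30 ± 0.18 and Kif21b at -0.07 ± 0.16. Klc2 had 226, 227, 283 and 171 CPM in SOD1*G93A IPs, against 213, 178 and 131 CPM in WT IPs (0.38 ± 0.18, adjusted p = 0.69, edgeR). The libraries of replicate 3 in both genotypes were named as read 1 and the others as read 2, and with read 2 libraries alone or with the read as a covariate the count of members stayed at 0.

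M1 inputs of SOD1*G93A mice did not differ from those of WT mice by edgeR in any member, where 3.33% of all 14324 genes passed (2.13% higher, 1.2% lower). The member with the smallest p was Kifc2, with 125 to 163 CPM (median 143) in SOD1*G93A inputs and 151 to 195 CPM (median 172) in WT inputs, a log2 fold change of -0.23 ± 0.07 (edgeR adjusted p = 0.0733). With DESeq2, or with a stricter filter on low counts, 1 member passed. Kif2a was at 0.16 ± 0.07 and Kifap3 at 0.14 ± 0.06. For the 6 members that fell in Gprin3 IPs, the input values were 0.06 ± 0.05 for Kif1b, -0.12 ± 0.07 for Kif5a, -0.11 ± 0.06 for Kif1a, 0.06 ± 0.06 for Kif5b, 0.02 ± 0.05 for Kif5c and -0.19 ± 0.09 for Kif21b. These lay above 0 for Kif1b, Kif5b and Kif5c and below 0 for the other 3, and none passed the threshold.

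The difference between these effects was tested as an interaction. The SOD1*G93A effect in Gprin3 IPs minus that in M1 inputs was below 0 in 10 members, where 18.2% of all 15495 genes passed, 6.78% higher and 11.4% lower. The largest in size were Kif13b at -1.30 ± 0.40, Kif13a at -1.05 ± 0.34, Kif1b at -1.01 ± 0.09 and Kif5a at -0.73 ± 0.14, followed by Kif21b, Kif1a, Kif5b, Kif5c, Kifap3 and Kif21a. With 1 of the 16 libraries left out in turn, 5 of the 10 held in every fit (Kif1a, Kif1b, Kif5a, Kif5b and Kif5c). Kif13a ranged from -1.61 to -0.095, the value nearest 0 being that without the WT IP of replicate 2, and held in 9 of 16 fits, as did Kif21a, while Kif13b ranged from -1.71 to -0.78 and held in 14. With the length trend taken out, 2 members passed. In the same interaction 10 of 11 astrocyte markers were called lower and 1 higher, and 12 of 13 oligodendrocyte markers lower and 0 higher. Of precursor markers 5 of 8 were lower, and of microglial markers 6 of 12, with 0 higher in either list. This interaction uses the same WT Gprin3 IPs, which held more glial RNA, and baseline Gprin3 IPs were not tried in their place. The part of these cell types was not tested. The SOD1*G93A effect in Gprin3 IPs minus that in Colgalt2 IPs passed in 0 members, where 0.0775% of all 15476 genes did (12 by edgeR). At an unadjusted p under 0.05 there were 1433 genes, and DESeq2 called 152 genes and 0 members. Kif1b was at -0.51 ± 0.23, Kif5a at -0.40 ± 0.23 and Kif21b at -0.77 ± 0.26 (edgeR adjusted p = 0.49, 0.64 and 0.33). So the fall in Gprin3 IPs was not shown to differ from the change in Colgalt2 IPs.

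The motors of cell division and of the cilium were at low levels, each with a mean of 5.19 CPM or less. The 6 motors of cell division (Kif11, Kif18a, Kif20a, Kif20b, Kif22 and Kif23) summed to 2.97 to 19.7 CPM in any library, and none of them passed the threshold in baseline Gprin3 IPs, in baseline Colgalt2 IPs or in any SOD1*G93A comparison with WT. In SOD1*G93A Gprin3 IPs against inputs the spindle midzone motor Kif23 was called higher (1.45 ± 0.55) and the chromosome motor Kif22 lower (-1.89 ± 0.75, edgeR adjusted p = 0.0477). Kif23 had 3.02, 4.10 and 0.905 CPM in these IPs. Its mean of 1.06 CPM passed the limit of 1 CPM only with these libraries, so its place among the members and its call rest on the same values. In WT Gprin3 IPs against inputs the spindle motor Kif11 was called higher and Kif18a and Kif22 lower. None of these calls held in every fit with 1 library left out: in WT mice Kif11 held in 2 of 7 fits (0.21 to 1.49) and Kif18a and Kif22 in 3 of 7, and in SOD1*G93A mice Kif23 held in 3 of 9 and Kif22 in 2 of 9. The 10 markers of dividing cells summed to 28.8 to 90.7 CPM in any library. The 5 members of the cilium (Kif6, Kif7, Kif9, Kif24 and Kif27) summed to 8.50 to 27.3 CPM, with Kif24 called higher in Gprin3 IPs of both genotypes of the disease set and no other call. In WT mice the Kif24 call held in 2 of 7 fits with 1 library left out, and in SOD1*G93A mice it was lost without replicate 1 of the IPs (0.93). Ependymal and ciliated cell markers (10 genes) summed to 2.45 to 11 CPM in any library. Klc4, Kif17, Kifc3, Kif6, Kif7, Kif9, Kif27, Kif20a and Kif20b passed in none of the 10 comparisons.

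The proteins that work with kinesins were examined as fixed lists. Of 36 cargo adaptors and regulators tested, 8 were higher and 4 lower in baseline Gprin3 IPs than in inputs, where 13.9% of all genes were higher and 15.3% lower. Their median log2 fold change was 0.18, against -0.03 over all genes. The calsyntenin Clstn3 (1.39 ± 0.15), the synaptic vesicle protein Rab3a (1.11 ± 0.13) and the kinesin-1 activator Map7d2 (0.92 ± 0.14) were higher. The mitochondrial adaptor Trak1 (-0.72 ± 0.17), the scaffold Dlg1 (-0.70 ± 0.13) and its partner Lin7a (-0.55 ± 0.15) were lower. In Colgalt2 IPs the JNK scaffold Mapk8ip2 was the sole call (1.37 ± 0.24), where 1.75% of all genes were higher and 0.906% lower. Between the lines 0 were higher and 3 lower in Gprin3 IPs, Htt (-1.61 ± 0.37), Mapk8ip2 (-1.19 ± 0.28) and Clstn2 (-1.18 ± 0.28), where 2.22% of all genes were higher and 4.45% lower. For SOD1*G93A over WT in Gprin3 IPs, 2.92% of all genes were higher and 5.22% lower. There 1 adaptor was higher, the lysosome GTPase Arl8a (0.55 ± 0.15), and 8 were lower, led by the kinesin-1 binding nucleoporin Ranbp2 (-1.30 ± 0.13), Htt (-1.28 ± 0.15) and the liprin Ppfia3 (-1.24 ± 0.20). Over all genes with a length, the log2 fold change had a Spearman correlation with transcript length of -0.38 between the lines. It was -0.39 for SOD1*G93A over WT in Gprin3 IPs. The part of length in the adaptor calls was not tested. M1 inputs, with 2.13% of all genes higher and 1.2% lower, had 1 adaptor higher (Dlg1, 0.23 ± 0.06) and 1 lower (Mapk8ip1, -0.28 ± 0.06) in SOD1*G93A mice, and Colgalt2 IPs had none by edgeR.

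Tubulins and neuronal microtubule proteins, the track on which kinesins run, made a list of 35 genes. In baseline Gprin3 IPs 16 were higher than in inputs and 3 lower, where 13.9% of all genes were higher and 15.3% lower, and their median was 0.50. The neuronal tubulin Tubb3 led at 1.42 ± 0.13, with Tubb4b at 1.27 ± 0.16 and Tuba1c at 1.24 ± 0.15, and the lower genes were Dcx (-1.52 ± 0.22), the detyrosinating enzyme Vash1 (-0.67 ± 0.23) and the dendritic protein Map2 (-0.63 ± 0.18). In baseline Colgalt2 IPs 4 were higher (Camsap3, Tubb2a, Tubb4b and Tubb3) and 0 lower, beside 1.75% and 0.906% of all genes. Between the lines none passed. In SOD1*G93A Gprin3 IPs 0 were higher than in WT and 5 lower, beside 2.92% and 5.22% of all genes. The lower genes were the microtubule-associated proteins Map1a (-1.11 ± 0.11), Map2 (-1.07 ± 0.12), Map1b (-1.0 ± 0.08), Mapt (-0.50 ± 0.14) and Camsap2 (-0.43 ± 0.11), with no tubulin among them. Over all genes with a length, the log2 fold change of this comparison had a Spearman correlation of -0.39 with transcript length. The part of length in this split of the list was not tested. In M1 inputs Dcx (0.40 ± 0.08), Map9 (0.28 ± 0.05) and Tuba1a (0.24 ± 0.06) were higher in SOD1*G93A mice and 0 were lower, beside 2.13% and 1.2% of all genes.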

How the data were processed

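The 32 count files were used. Mapping to mm10 with Subread and gene assignment with featureCounts stand in the submitters' processing notes, which also name DESeq2 1.26.0 and give no version for the other tools. The deposited values are raw counts of reads for 24100 features, of which 9 carry no symbol (at most 0.0201% of counts) and were dropped. RNA input was 15 ng, amplified by NuGEN Ovation V2 ahead of TruSeq v2, per the labels' protocols, which can favour some transcripts. The authors' tables of comparisons, with 36 columns of values per library, were not used.

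CPM used each library's total (10863628 to 77220890). Lengths are those of the longest GENCODE M21 transcript, and coordinates and promoters are from RefSeq GRCm38.p6. The 10 comparisons were each fitted over all genes with edgeR 4.0.16 (filterByExpr, TMM, robust quasi-likelihood F test, Benjamini-Hochberg adjustment, threshold 0.05) on their own groups. TMM scaling moves fitted changes relative to ratios of CPM by the amounts given with the results. Alternatives were RLE size factors, other filters, DESeq2 1.42.0, a replicate block, a length trend taken out per library (lowess, span 0.3), 1 fit of 32 libraries and leaving out each library. The fits were checked on simulated counts. Members and lists were chosen with earlier results of these data known. Named were the main transport motors where a result turned on them, up to 5 called members per direction by size of change or the 3 with the smallest p, and up to 3 called list genes per direction. Kif24, Kif16b, the cell division and cilium motors, Kif1b and Kifc2 in Colgalt2 IPs, and the promoters were picked after their values were seen.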

Additional observations from a re-analysis of the deposited data

Results flagged for a closer look

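In groups of 4 to 6 libraries, 105 pairs of a member and a group were examined for a library far from the others, and 5 were found, where chance gives about 1 in 20. Kif5a was at 608.5 CPM in SOD1*G93A Colgalt2 IP replicate 1, below the other 3 at 766.6 to 782.1 CPM. Kif9, a cilium motor, was at 2.35 CPM in SOD1*G93A Colgalt2 IP replicate 2, below 4.99 to 5.23 CPM in the others. Kif18a was at 1.49 CPM in SOD1*G93A Colgalt2 IP replicate 1, above 0.526 to 0.678 CPM in the others. Kif1a was at 677.7 CPM in WT M1 input replicate 3, below 811.7 to 853.8 CPM in the others. Kif3c was at 231.7 CPM in SOD1*G93A M1 input replicate 2, above 181 to 196.5 CPM in the others.

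The SOD1*G93A effect differed between Gprin3 IPs and M1 inputs, by the interaction term of the edgeR fit, in 10 members, and each was lower in the IPs. The difference of log2 fold changes, IPs minus inputs, was -1.30 for Kif13b, -1.05 for Kif13a, -1.01 for Kif1b, -0.73 for Kif5a, -0.68 for Kif21b, -0.65 for Kif1a, -0.64 for Kif5b, -0.57 for Kif5c, -0.51 for Kifap3 and -0.39 for Kif21a. With 1 of 16 libraries left out in turn, Kif1a, Kif1b, Kif5a, Kif5b and Kif5c held in every fit and the other 5 did not, and Kif13a was at -0.095 without the WT IP of replicate 2. Most astrocyte and oligodendrocyte markers were also called lower in this interaction, as given above, and their part in the result was not tested.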

How the results depend on the processing

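Over 79 named members and comparisons, 1026 of 1211 values under an alternative kept their direction and their side of the threshold, 166 no longer passed it, 12 newly passed it and 7 changed sign. The cause was not tested unless the alternative's construction gives it. In Colgalt2 IP over input, 2 members were called, against 1 with RLE size factors, 7 with no filter, 5 at a mean of at least 5 CPM, 8 by DESeq2, 6 with the replicate block, 0 with the length trend taken out and 11 in the joint fit of 32 libraries. The joint fit called 9 members for WT Gprin3 IP over input, 16 between Gprin3 and Colgalt2 IPs, 1 for the interaction with Colgalt2 IPs and 6 for that with M1 inputs. The length trend taken out left 2 between the lines, 1 for SOD1*G93A over WT in Gprin3 IPs and 2 for the interaction with M1 inputs, and baseline Gprin3 IPs in place of WT IPs left 0. For M1 inputs a mean of at least 5 CPM, DESeq2 and the replicate block each gave 1. The replicate block gave 10 for SOD1*G93A Gprin3 IP over input. Whether equal replicate numbers mark pairs was not settled. With 3 or more pairs, no comparison had a correlation above 0.1 in every pair. In baseline Gprin3 IP over input, with 2 pairs, the correlations were 0.154 and 0.167, and so few pairs cannot decide. Leaving out 1 library gave 8 to 18 members for baseline Gprin3 IP over input, 0 to 18 for Colgalt2, 16 to 22 for SOD1*G93A Gprin3 and 12 to 15 for WT Gprin3 IP over input, 0 to 9 between the lines, 2 to 6 for SOD1*G93A over WT in Gprin3 IPs, 0 to 0 in Colgalt2 IPs, 0 to 1 in M1 inputs, 0 to 0 for the interaction with Colgalt2 IPs and 7 to 10 for that with M1 inputs. Signs changed for Kif26b in SOD1*G93A Gprin3 IP over input without SOD1*G93A replicate 1 (-0.024, against 2.63 without replicate 2), for Kif1b there with the length trend taken out (0.10), and against baseline Gprin3 IPs for Kif1b (0.0073), Kif5a (0.29), Kif1a (0.067), Kif5b (0.16) and Kif5c (0.047). Several groups hold 2 libraries, and many members lie at a few CPM, which limits precision.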
